A study of Homo sapiens with 12 samples.

Results

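The positions described here are the lines of 12 iCLIP site lists that fall on chrUn_gl000220, an unplaced contig of the human build hg19 that carries a ribosomal DNA unit. Every listed position on that contig was taken, on both strands, with no further choice. They made up 2836 of 1162690 listed lines (0.244%). All 2836 lay on the plus strand, in 1 stretch of 575 nt from position 117786 to position 118360, and all carried the same Ensembl transcript, ENST00000607521.1. That transcript had 0 lines elsewhere. The files do not give it a gene name, and no hg19 annotation was used here, so which ribosomal RNA the stretch belongs to is not stated. Across the 12 lists 0 lines lacked an Ensembl transcript. Contig signal outside annotated transcripts may therefore have no line. The single stretch and strand do not show that the rest of the contig had no signal.

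The libraries came from H9, an established human embryonic stem cell line. P-KO cells, whose source label reads SPA PKO, were set against WT cells, and both were crosslinked with ultraviolet light at 400 mJ per square centimetre. RNA was recovered with antibodies against RBFOX2 (FOX2 here), TDP43 or hnRNP M, which gave 6 groups of 2 libraries, called biological replicates in the series' design text. The labels do not say whether P-KO is 1 clone. No library made without one of these antibodies was analysed here, so contact with a given protein and ribosomal RNA carried along in every recovery cannot be told apart.

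Ribosomal RNA is the catalytic and structural core of the ribosome and the most abundant RNA of a cell. It is transcribed in the nucleolus from many near-identical gene copies as a long precursor, which is cut and modified into the mature RNAs. The recovered proteins are best known for work on other RNAs: FOX2 recognises GCAUG-like motifs and regulates splicing, TDP43 prefers GU repeats, and hnRNP M regulates splicing too. iCLIP fixes protein to RNA with ultraviolet light and locates the contact by where reverse transcription stops. How the authors placed reads that match several ribosomal DNA copies is not given in the sources used here.

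Each line gave 1 nucleotide and its count, and the authors listed only those with a p-value or q-value of at most 0.05. A count covered the 11 nt around its position, so neighbouring lines share counts. Only windows of 11 nt that do not overlap were summed, starting from the highest count, and these sums are called window counts. The 12 libraries held 58191 to 648651 window counts each. The SPA RNAs are long noncoding RNAs of the Prader-Willi region of chromosome 15. On its plus strand from 25000001 to 26000000 the 6 P-KO libraries held 0.0530% to 0.160% of window counts, against 0.915% to 1.63% in the 6 WT libraries, which goes with the labels. Intervals given below are exact Clopper-Pearson intervals at 95% and cover counting error only.

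All 12 libraries had signal on the contig, in amounts of 136 to 13878 window counts. FOX2 P-KO had 3263 window counts on the contig in replicate 1 and 13878 in replicate 2, against 2217 and 6293 in FOX2 WT. TDP43 P-KO had 1006 and 11784, against 4004 and 13048 in TDP43 WT. The hnRNP M libraries had the fewest, with 136 and 1147 in P-KO against 149 and 3291 in WT. In each of the 6 groups the library labelled replicate 2 held more contig counts than the one labelled replicate 1. In 9 of the 12 libraries no other transcript had a higher sum than the contig's. That ranking summed all listed lines, whose windows overlap, and not window counts.

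The number of listed positions followed the counts. FOX2 P-KO listed 299 and 421 positions, against 202 and 329 in FOX2 WT. TDP43 P-KO listed 117 and 390, against 299 and 393 in TDP43 WT. hnRNP M P-KO listed 19 and 126, against 13 and 228 in hnRNP M WT. The hnRNP M replicate 1 libraries thus rested on 10 windows in P-KO and 6 in WT, against 20 to 33 windows in the other 10 libraries, and stand apart from them below.

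A position was listed only above a count that differed between libraries. The lowest count listed on the contig was 4 in both hnRNP M replicate 1 libraries and 44 in FOX2 P-KO replicate 2, whereas every library listed counts of 2 elsewhere. It equalled 0.314% to 2.94% of a library's contig window counts. A site below that level has no line, so a site without a line is called not listed, and no fold is given for it. Single positions beside higher counts can lack a line too: FOX2 WT replicate 1 listed 117859 at 2.93% but not 117860. A missing line therefore does not by itself show a count below that level.

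**Figure D1:**
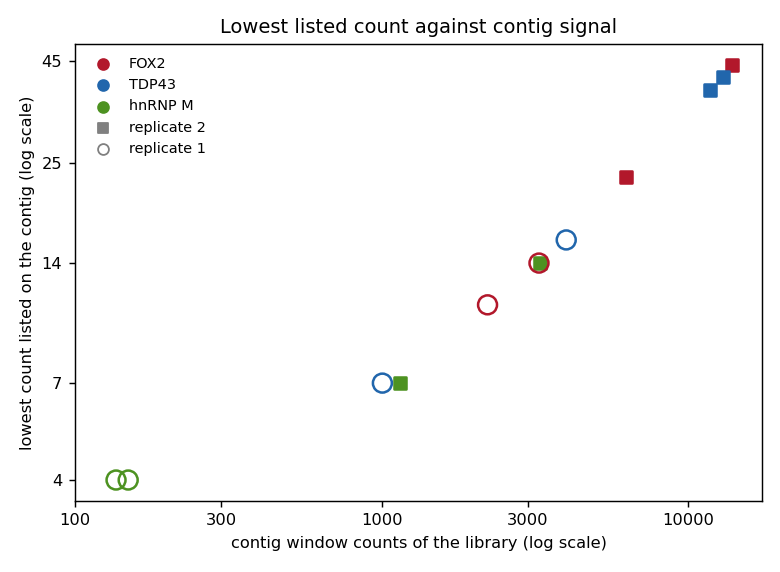
Lowest count listed on the contig (vertical axis, log scale) against the library's contig window counts (horizontal axis, log scale), 1 point per library, filled squares for replicate 2 and open circles for replicate 1. The lowest listed count was 4 in the libraries with 136 and 149 contig counts and 44 in the library with 13878.

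As a share of the library, the contig held 0.219% to 4.61% of window counts. FOX2 P-KO had 1.41% (interval 1.36% to 1.45%) in replicate 1 and 2.14% (2.10% to 2.18%) in replicate 2, against 1.01% (0.972% to 1.06%) and 2.18% (2.13% to 2.23%) in FOX2 WT. TDP43 P-KO had 0.583% (0.547% to 0.620%) and 4.03% (3.96% to 4.10%), against 1.93% (1.87% to 1.99%) and 4.61% (4.53% to 4.69%) in TDP43 WT. hnRNP M P-KO had 0.219% (0.184% to 0.259%) and 1.97% (1.86% to 2.09%), against 0.242% (0.205% to 0.284%) and 2.67% (2.58% to 2.76%) in hnRNP M WT. In every protein the P-KO and WT values overlapped, while the replicates of 1 group lay far outside each other's intervals.

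**Figure D2:**
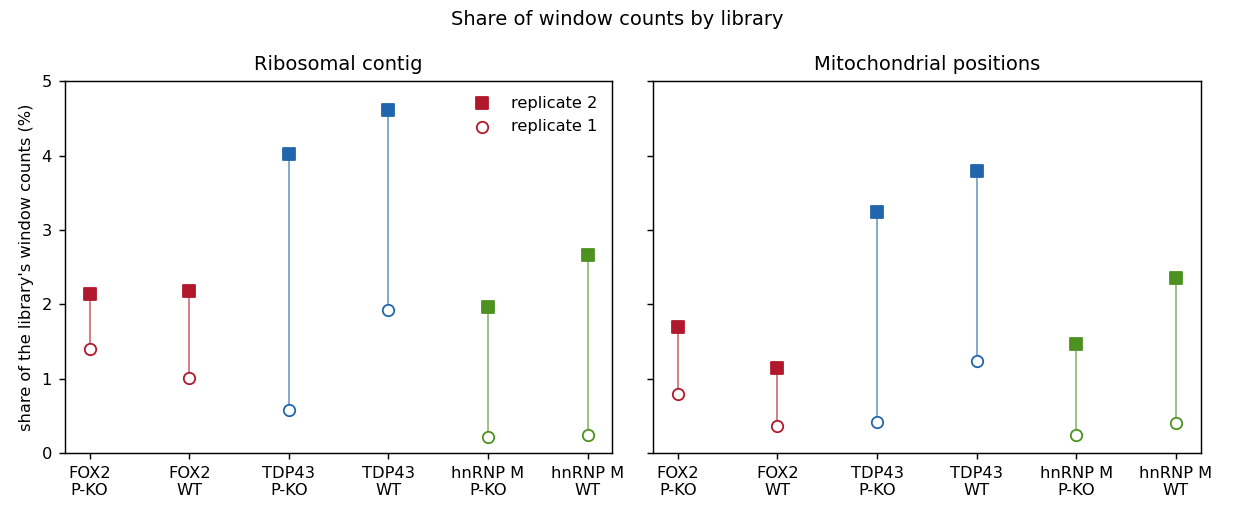
Share of a library's window counts (vertical axis, %) on the ribosomal contig (left) and at mitochondrial positions (right), by group, with filled squares for replicate 2, open circles for replicate 1 and a line joining the 2 libraries of a group. On the contig P-KO and WT overlap in each protein, and replicate 2 lies above replicate 1 in all 6 groups, from 1.52 times in FOX2 P-KO to 11.02 times in hnRNP M WT.

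The comparison of P-KO with WT asks whether the contig stretch took a different part of the window counts in cells labelled SPA PKO. The mean share was 1.77% ± 0.519 in FOX2 P-KO against 1.60% ± 0.825 in FOX2 WT (SD, n = 2 each). It was 2.30% ± 2.43 in TDP43 P-KO against 3.27% ± 1.90 in TDP43 WT, and 1.10% ± 1.24 in hnRNP M P-KO against 1.45% ± 1.71 in hnRNP M WT. The ratios of these means were 1.11, 0.705 and 0.753. All 3 differences were smaller than the spread between replicates.

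Over the 3 proteins together the log2 share differed by -0.34 between P-KO and WT (exact permutation test with genotype permuted within protein, two-sided, 216 arrangements, p = 0.704). The test did not tell P-KO from WT. The mean log2 differences were 0.22 in FOX2, -0.96 in TDP43 and -0.29 in hnRNP M, values with no test. Their signs depended on the processing: with all listed lines summed they were -0.65, -0.68 and -0.70, and the FOX2 value was also below 0 with counts of at least 5 (-1.15) and with the last column at most 0.01 (-0.12). Inside a single protein the smallest exact p that 4 libraries allow is 0.3333, so no such test was made. Among libraries of the same replicate number, the P-KO share was 1.39 and 0.982 times the WT share for FOX2 in replicates 1 and 2, 0.302 and 0.873 times for TDP43, and 0.907 and 0.740 times for hnRNP M.

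The same question was put to strand-specific bins of 1 kb over the whole genome, fitted together with the quasi-likelihood test of edgeR. The contig stretch fell into 2 of the 5586 bins tested, from 117001 to 118000 and from 118001 to 119000. For the effect of P-KO common to the 3 proteins, 0 of these 2 bins passed an adjusted p of 0.05, against 0.823% of all bins tested. Their log2 fold changes were -0.67 and -0.91, with an adjusted p of 0.999653 for both by edgeR. Neither had an unadjusted p under 0.05, and DESeq2 called 0 of them.

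For single proteins, 0 of the 2 bins passed in FOX2, TDP43 or hnRNP M, where the background over all bins was 0% in each. The interaction of protein and genotype also called 0 of the 2 bins, with a background of 0%. In these fits too 0 of the 2 bins had an unadjusted p under 0.05, and DESeq2 called 0. With 2 libraries a group and a biological coefficient of variation of 1.20, 0 calls do not show that the groups were alike.

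The 3 proteins were compared next. Over 4 libraries each, the contig held 1.68% ± 0.572 of window counts in FOX2 (range 1.01% to 2.18%), 2.79% ± 1.87 in TDP43 (0.583% to 4.61%) and 1.27% ± 1.24 in hnRNP M (0.219% to 2.67%) (SD, n = 4 each). The highest mean was that of TDP43 and the lowest that of hnRNP M, but the ranges of all 3 overlapped. An exact permutation test over the 3 proteins, with protein permuted within genotype, gave p = 0.364. The mean log2 share differed by -0.41 between FOX2 and TDP43, by 1.14 between FOX2 and hnRNP M and by 1.56 between TDP43 and hnRNP M. After Benjamini-Hochberg adjustment over these 3 pairs the exact permutation p was 0.667 for each, two-sided. The test over the 3 proteins passed under 2 alternatives: with positions of at least 5 counts only (exact permutation p = 0.0474), and with the number of windows in place of their counts (exact permutation p = 0.00741), where FOX2 and TDP43 turned lower than hnRNP M.

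Among the genome-wide 1 kb bins in WT cells, 0 of the 2 contig bins passed between any pair of proteins, although many bins elsewhere did. The background was 14% of bins called for FOX2 against TDP43, 10.7% for FOX2 against hnRNP M and 6.19% for TDP43 against hnRNP M. The adjusted p of the 2 contig bins by edgeR was 0.688 and 0.876 for the first pair, 0.833 and 1 for the second, and 0.491 and 0.866 for the third. Neither had an unadjusted p under 0.05 in any pair, and DESeq2 called 0. These backgrounds depended on the fit: DESeq2 called 0, 23 and 7 bins over all, and edgeR called 0 in each pair without TMM or without either FOX2 WT library.

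The signal was unevenly placed along the stretch. The part from position 118001 onwards held 80.4% ± 4.83 of contig window counts (SD, n = 12), with a range of 72.4% to 86.9%. That part, up to 118360, is also the longer part of the stretch, which begins at 117786. Of the 575 positions, 503 were listed in at least 1 library, 250 in at least 6, 32 in 1 library only and 72 in none. Positions listed in all 12 libraries numbered 6: 117878, 118217, 118222, 118223, 118228 and 118229. All but the first of these lie close together, in the highest peak.

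Merging the 11 nt windows of all libraries left 2 covered stretches, from 117781 to 118114 (334 nt) and from 118141 to 118365 (225 nt), with 26 nt between them that no window touched. Both stretches were held by all 12 libraries, and in this sense both peaks were common to the 3 proteins. Because so few peaks show little of the profile, it was also divided into 11 nt sites, each named by its centre and kept from the highest mean share downwards. This gave 38 sites. A site's share is the count at its centre, or at the nearest listed position within 5 nt, over the library's contig window counts. In means, SDs and ranks over libraries, and in comparisons of whole profiles, a site not listed counts as 0%. In thin libraries the borrowed position can overlap a neighbouring site. Site shares are therefore read 1 at a time, except in comparisons of whole profiles. They sum to 97.1% to 117% per library, with the highest sum in hnRNP M WT replicate 1.

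**Figure D3:**
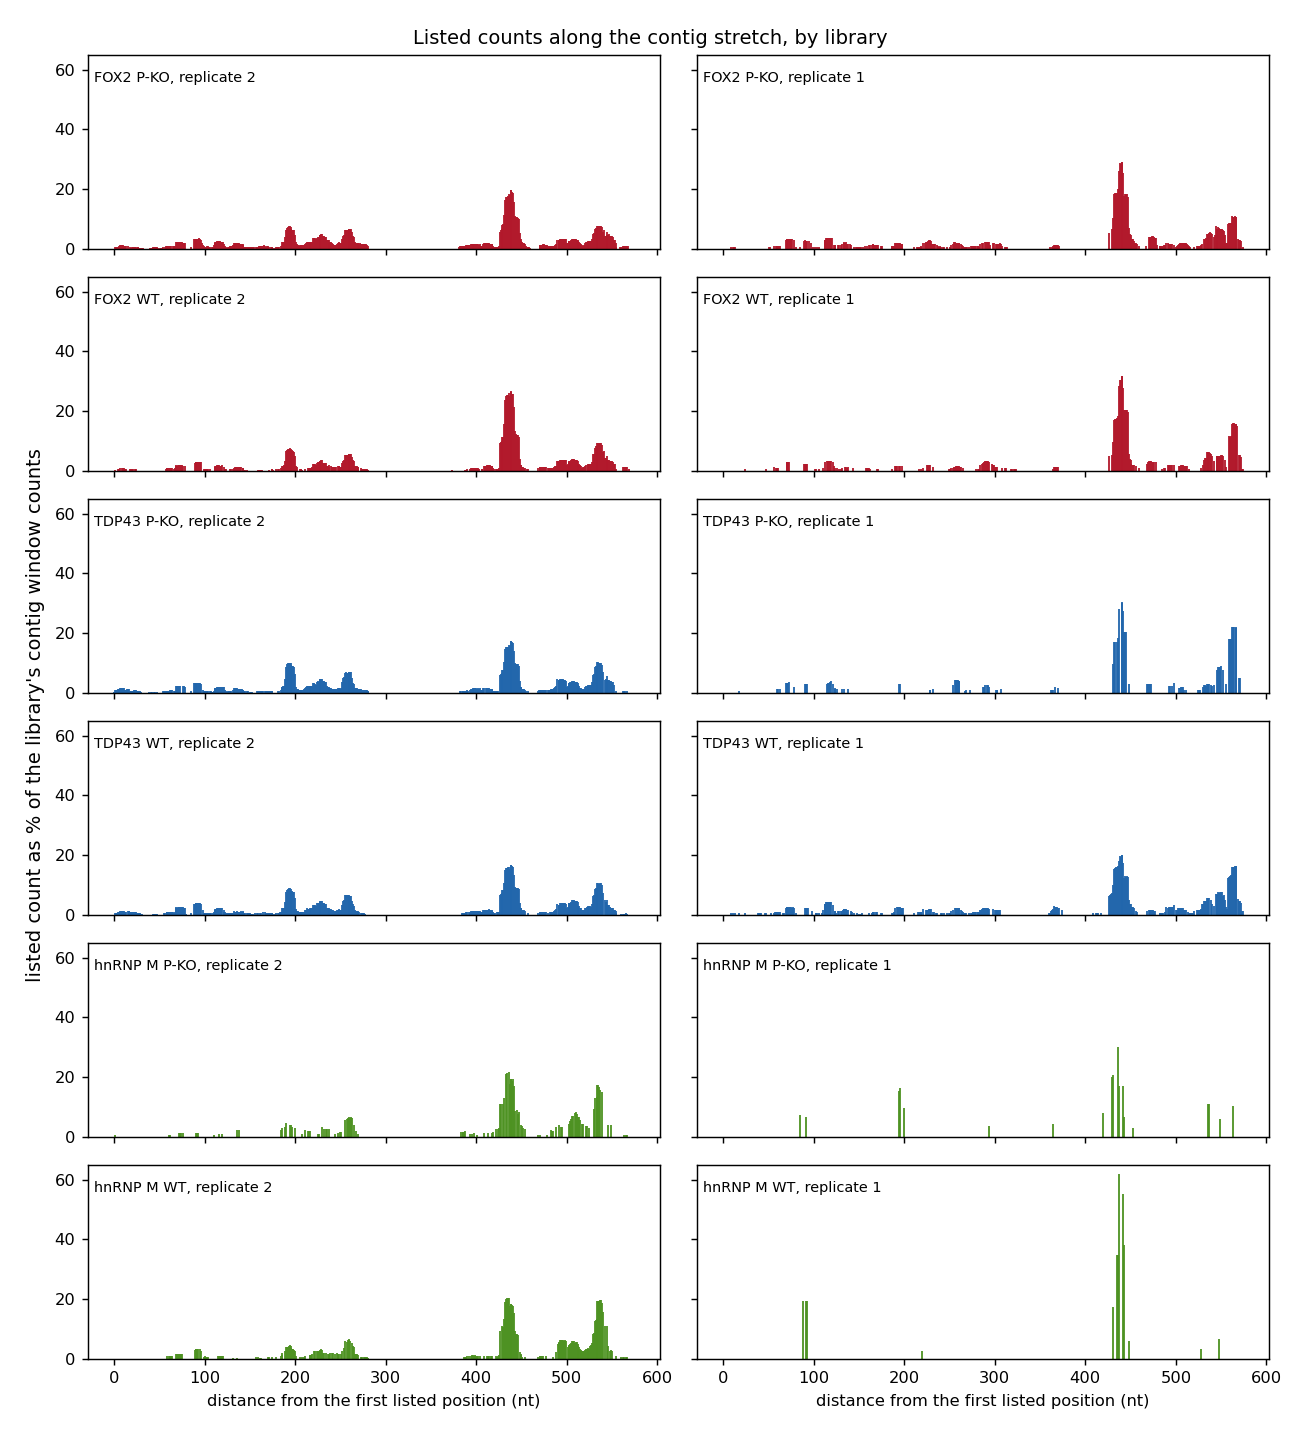
Listed counts along the contig stretch for the 12 libraries, as a percentage of the library's contig window counts (vertical axis), against the distance from the first listed position in nt (horizontal axis), with replicate 2 on the left, replicate 1 on the right and P-KO above WT. A peak about 437 nt from the first position holds the highest listed count of every library. Outside the hnRNP M replicate 1 panels, the other peaks differ between the left and right columns more than between rows.

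The highest peak was the same for all 3 proteins. Site 118223 held 24.0% ± 12.8 of contig window counts over the 12 libraries (SD) and ranked first in the mean of FOX2, of TDP43 and of hnRNP M. It held 25.9% and 17.9% in FOX2 P-KO, against 28.2% and 24.9% in FOX2 WT. It held 27.9% and 15.8% in TDP43 P-KO, against 17.9% and 15.5% in TDP43 WT. It held 16.9% and 17.5% in hnRNP M P-KO, against 61.7% and 17.8% in hnRNP M WT, where 61.7% rests on 92 of 149 counts. By site share it led in 10 of the 12 libraries. Site 118212 led in hnRNP M P-KO replicate 1 with 19.9%, and site 118323 led in hnRNP M WT replicate 2 with 19.8%.

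The highest listed count of every library lay inside the 11 nt of site 118223, between positions 118220 and 118227. P-KO and WT shares of site 118223 overlapped in FOX2 and in TDP43, and in hnRNP M the lower WT value, 17.8%, lay next to the higher P-KO value, 17.5%.

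Of the 38 sites, 26 were common to the 3 proteins in the sense that at least 2 of the 4 libraries of each protein listed them. FOX2 held all 38 by this measure, TDP43 held 37 and hnRNP M held 26. The 12 sites that hnRNP M did not hold divide into 11 held by FOX2 and TDP43 and 1, site 118104, held by FOX2 alone. Sites with a listed position within 5 nt in all 12 libraries numbered 5: 117878, 118212, 118223, 118234 and 118335, of which 118212 and 118234 adjoin the highest peak. In the 10 libraries other than the hnRNP M replicate 1 pair, 18 sites were listed throughout.

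The libraries with the least contig signal listed the fewest sites. hnRNP M P-KO replicate 1 listed 11 of the 38 sites and hnRNP M WT replicate 1 listed 7, whereas the other 10 libraries listed 22 to 34. Without hnRNP M P-KO replicate 2, or without hnRNP M WT replicate 2, the sites common to the 3 proteins numbered 11 instead of 26. The part of contig signal in the 12 sites that hnRNP M did not hold was not tested.

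The leading sites were largely shared as well. Among the 5 sites of highest mean share in each protein, 3 were the same in all 3 proteins (118212, 118223 and 118323). FOX2 and TDP43 shared 4 of 5, TDP43 and hnRNP M 4 of 5, and FOX2 and hnRNP M 3 of 5. Site 117980 was shared by TDP43 and hnRNP M but not by FOX2. In hnRNP M this site held 15.4% in P-KO replicate 1 (21 of 136 counts), against 3.92% in P-KO and 4.47% in WT in replicate 2. Site 118212 averaged 6.24% in FOX2 and 7.15% in TDP43. In hnRNP M it held 10.99% in P-KO and 9.45% in WT in replicate 2, while the replicate 1 pair was read at positions that overlap the highest peak. Site 118323 averaged 7.19% in FOX2, 7.34% in TDP43 and 11.6% in hnRNP M, where WT replicate 1 did not list it and counts as 0%. Over 12 libraries site 118323 held 8.71% ± 5.38 (SD).

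**Figure D4:**
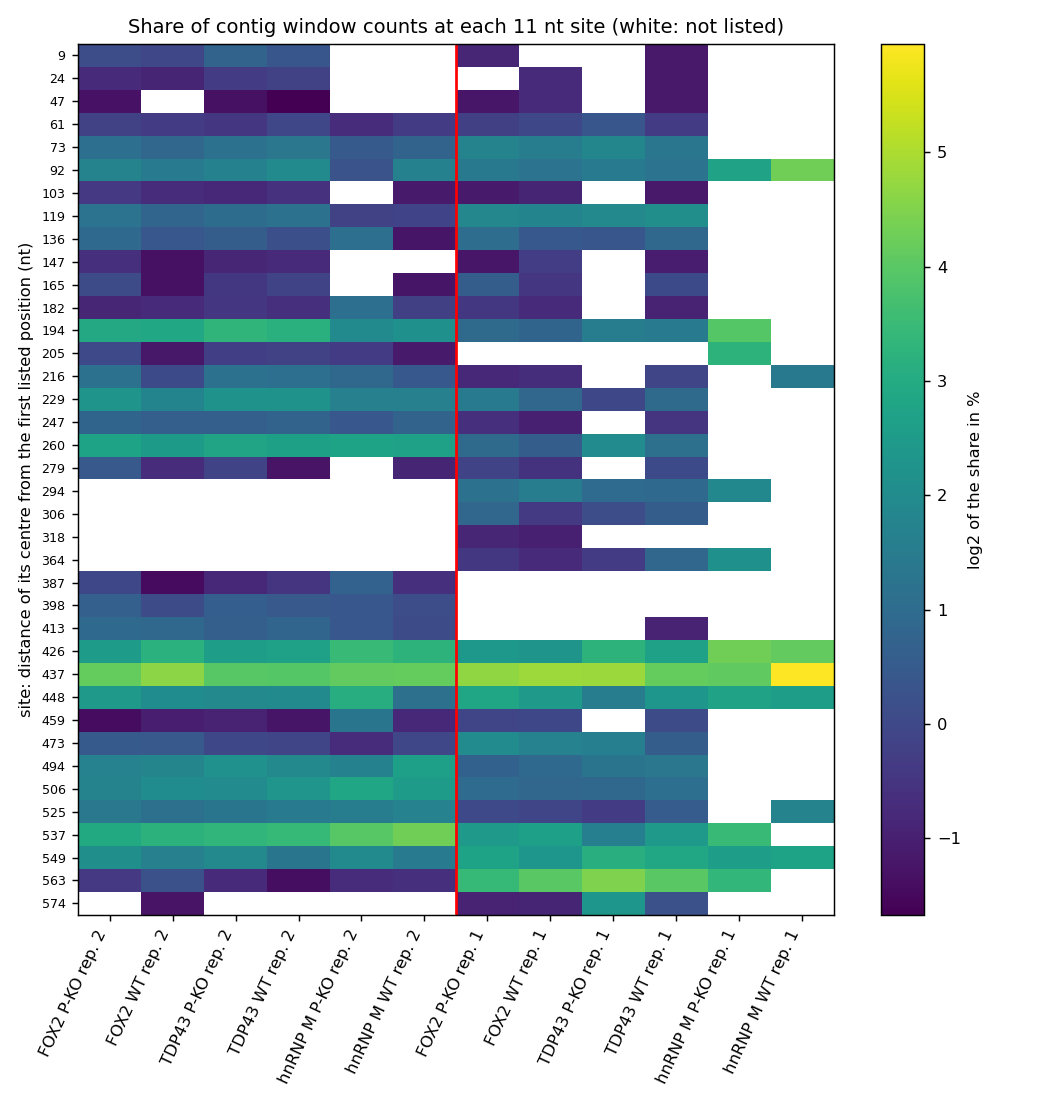
Share of contig window counts at each of the 38 sites (rows, labelled by the distance of the site's centre from the first listed position in nt) in the 12 libraries (columns), as log2 of the percentage, with replicate 2 left of the red line and replicate 1 right of it, and white where a site was not listed. The brightest row, 437 nt from the first position, is bright in all 12 columns, and several rows are filled on only 1 side of the line.

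Outside the hnRNP M replicate 1 pair, the finer profile followed the replicate number in the labels more closely than the protein or the genotype. Site 118349 is the clearest case. In the libraries labelled replicate 2 it held 0.749% and 1.18% in FOX2 P-KO and WT and 0.586% and 0.383% in TDP43 P-KO and WT. The hnRNP M pair of that number held 0.610% in P-KO and 0.638% in WT. In those labelled replicate 1 it held 10.7% and 15.9% in FOX2 P-KO and WT and 22.1% and 16.0% in TDP43 P-KO and WT, while hnRNP M P-KO held 10.3% and hnRNP M WT did not list it. All 5 replicate 1 values lay above all 6 replicate 2 values, whichever protein was recovered.

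Other sites ran the opposite way. Site 118046 held 5.63% to 6.85% in the 6 replicate 2 libraries, against 1.49% to 3.98% in the FOX2 and TDP43 replicate 1 libraries, and it was not listed in the hnRNP M replicate 1 pair. Site 117980 held 7.65% and 7.52% in FOX2 P-KO and WT replicate 2, against 1.96% and 1.71% in replicate 1. In TDP43 P-KO and WT it held 10.0% and 8.94% in replicate 2, against 2.88% and 2.70% in replicate 1. hnRNP M P-KO alone ran the other way, with 3.92% in replicate 2 against 15.4% in replicate 1 (21 of 136 counts). hnRNP M WT held 4.47% in replicate 2 and did not list the site in replicate 1.

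A site that was not listed was taken to lie below the lowest share that could be listed, which was not tested. It was counted as lower only where the other library's share was above that lowest share. On that count the share was higher in replicate 2 than in replicate 1 in all 6 groups at 5 of the 38 sites, 118015, 118046, 118280, 118292 and 118323, and lower in all 6 at 1. In the 4 FOX2 and TDP43 groups it was higher at 13 sites and lower at 9. The site that was lower in all 6 was 118335, with 2.42% to 4.32% in replicate 2 libraries against 5.05% to 8.55% in replicate 1 libraries, ranges that do not overlap. Site 118184 was listed in all 6 replicate 2 libraries, with 1.05% to 1.59%, and in 0 of 6 replicate 1 libraries, which could list 0.400% to 0.696% in FOX2 and TDP43 but only 2.68% or more in hnRNP M. Sites 118080, 118092, 118104 and 118150 were listed in 0 of 6 replicate 2 libraries and in 5, 4, 2 and 5 replicate 1 libraries. Site 118080 held 2.24% and 2.93% in FOX2 P-KO and WT replicate 1, 1.99% and 1.92% in TDP43 P-KO and WT replicate 1, and 3.68% in hnRNP M P-KO replicate 1.

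Likeness of the profiles was measured as Pearson's r across the 38 sites, which share 1 transcript and are not independent, and is given as a description. The hnRNP M replicate 1 pair was left out of these ranges. Between libraries of the same number, r was 0.941 to 0.992 within a protein and 0.850 to 0.973 between proteins. Between the 2 replicates of 1 group it was 0.569 to 0.801, below each value between proteins at the same number. Each of the 10 libraries was most like a library of its own number, and 9 of the 10 were most like one of the same protein. The exception was FOX2 P-KO replicate 2, whose nearest profile was that of TDP43 P-KO replicate 2 (r = 0.973).

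**Figure D5:**
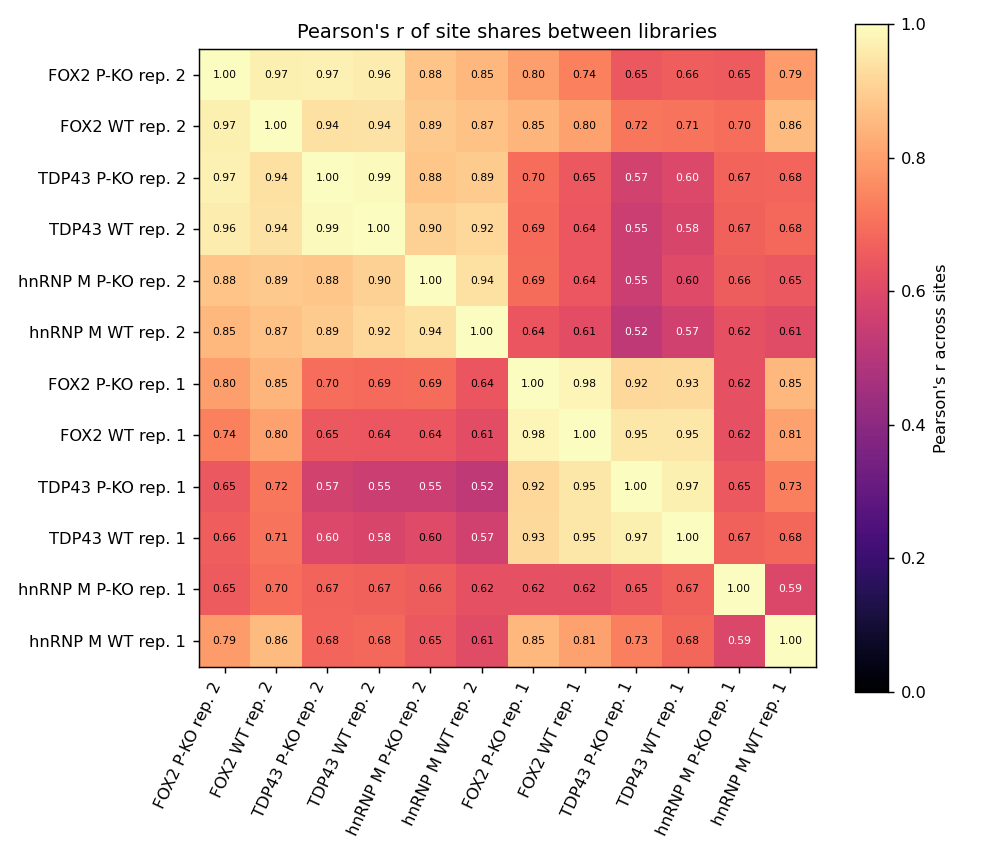
Pearson's r across the 38 sites between each pair of the 12 libraries, ordered by replicate number and then by group, with P-KO before WT. The 6 replicate 2 libraries form a block with r of 0.85 or more, the 4 FOX2 and TDP43 replicate 1 libraries form another with r of 0.92 or more, and values between these blocks are lower, at 0.52 to 0.85.

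The same order was seen in the part of the site counts that would have to be moved to turn 1 profile into another. Site counts were scaled to their own sum in each library, so counts borrowed by neighbouring sites enter at both. Between P-KO and WT of the same number this was 10.7% and 13.9% in FOX2 for replicates 1 and 2, 19.8% and 5.50% in TDP43, and 53.3% and 15.4% in hnRNP M, where 53.3% compares the libraries with 136 and 149 counts. Between replicate 2 and replicate 1 it was 32.3% in FOX2 P-KO, 31.6% in FOX2 WT, 46.8% in TDP43 P-KO, 35.3% in TDP43 WT, 48.1% in hnRNP M P-KO and 60.0% in hnRNP M WT. Site 118349 gave the largest single difference in all 4 FOX2 and TDP43 groups. In FOX2 and in TDP43 each difference between replicate 2 and replicate 1 was larger than each difference between P-KO and WT of the same number.

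The highest listed position lay at 118224 in the 4 FOX2 and TDP43 replicate 2 libraries and at 118226 or 118227 in the 4 replicate 1 libraries. A common shift of the whole profile was also tried, with positions not listed set to 0. Moving replicate 1 by up to 8 nt raised the position-by-position r by 0 to 0.0626 in the 6 groups. The best shift was 0, 1 or 2 nt. The part of an offset in the difference between replicates was not tested.

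The amount of contig signal also differed by replicate number. The share in replicate 2 was 1.52 times that in replicate 1 in FOX2 P-KO, 2.15 times in FOX2 WT, 6.91 times in TDP43 P-KO, 2.39 times in TDP43 WT, 8.99 times in hnRNP M P-KO and 11.02 times in hnRNP M WT. The mean log2 difference was 2.06, or 4.18-fold, with replicate 2 higher in 6 of 6 groups. An exact sign-flip permutation test over the 6 groups gave p = 0.03125, two-sided, the smallest that its 64 arrangements allow. By the number of windows in place of their counts the mean log2 difference was -0.10 (exact sign-flip permutation test, p = 0.5625). The comparison was chosen after the values had been seen, and the labels do not say that a replicate number marks a shared batch or day.

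Mitochondrial positions moved in the same direction. They held 1.15% to 3.79% of window counts in replicate 2 libraries, against 0.248% to 1.25% in replicate 1 libraries. The ratio of replicate 2 to replicate 1 was 2.14 in FOX2 P-KO, 3.17 in FOX2 WT, 7.65 in TDP43 P-KO, 3.04 in TDP43 WT, 5.90 in hnRNP M P-KO and 5.83 in hnRNP M WT. Replicate 2 libraries were also deeper in 5 of 6 groups. The part of depth in the contig share was not tested.

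In the genome-wide 1 kb bins, fitted with the replicate number as a term, 0 of the 2 contig bins passed between replicate 2 and replicate 1, against 0.358% of bins called. Their log2 fold changes were 2.96 and 2.72, with adjusted p of 0.147 and 0.349 by edgeR, and both had an unadjusted p under 0.05. In bins of 200 nt, 2 of 4 contig bins passed, against 1.8% of the 3990 bins tested, both higher in replicate 2. The first was 117601 to 117800 (edgeR adjusted p = 3.4e-05), where 4 of 6 replicate 1 libraries listed no position and no fold is given. The second was 118001 to 118200 (log2 fold change 3.57, edgeR adjusted p = 0.0192). The fit took windows that were not listed as 0 counts. In 117601 to 117800 hnRNP M WT replicate 2 also listed no position. There the hnRNP M replicate 1 libraries could list only 2.68% or more of their contig window counts. The p-value of that bin therefore does not tell a lower count from one not listed.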

How the data were processed

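Alignment was with Bowtie to GRCh37 (hg19), per the submitters' processing notes. The sources used here do not give its version, the peak caller or the handling of random barcodes and of reads matching several places. The authors deposited 1 list per library, and the deposited counts per position are whole numbers that were not normalized. The last deposited column is a p-value or a q-value.

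Non-overlapping 11 nt windows were kept from the highest count downwards and summed (window counts). Shares were compared on the log2 scale by exact permutation tests. Window counts in strand-specific 1 kb bins of the whole genome were fitted with edgeR 4.0.16 in R 4.3.3 (filterByExpr, TMM, quasi-likelihood F test, 1 fit over all 12 libraries, Benjamini-Hochberg adjustment over all tested bins, threshold 0.05). TMM factors ran from 0.294 to 6.27. DESeq2 1.42.0, other bins, filters and left-out libraries were alternatives. The fits were tested on simulated counts, with added changes much larger than the P-KO differences of the contig bins. Recovery of differences as small as those was not tested. Python 3.11.15 and scipy 1.17.1 did the rest.

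The named sites are the 10 of highest mean share over the 12 libraries, those listed in all 12, and the 5 highest of each protein; the planned peaks merged into 2 stretches, so 11 nt sites replaced them after the data had been seen, and further sites are named where their listing followed the replicate number. The contig and the comparisons were chosen with earlier results of these data known. No sequence is printed, since no hg19 genome was used here. Where nothing in the labels separates cultures further, p-values measure the spread between these libraries.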

Additional observations from a re-analysis of the deposited data

How the results depend on the processing

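Across 26 results, 410 values were recomputed, of which 383 were labelled the same. For tests this meant the same side of the threshold, and for values with no test a move smaller than the spread between replicates. For counts of bins or peaks it meant an equal or similar count. Many of the 410 values are counts of contig bins called, which were 0 in most settings. Within 1 protein the P-KO value changed sign easily: leaving out single libraries it ran from -0.33 to 0.77 in FOX2, from -2.35 to 0.43 in TDP43 and from -2.02 to 1.44 in hnRNP M. Counting windows gave 0.98 in hnRNP M. The call for P-KO against WT over the 3 proteins did not pass under any setting (exact permutation p = 0.343 to 0.889), but its sign turned to 0.27 by the number of windows, and the value ran from -0.92 to 0.23 leaving out each library in turn: it was 0.12 without TDP43 P-KO replicate 1, 0.19 without hnRNP M P-KO replicate 1 and 0.23 without hnRNP M WT replicate 2. Without that last library the common log2 fold changes of the 2 contig bins turned to 0.49 and 0.29, and leaving out single libraries they ran from -1.30 to 0.49 and from -1.38 to 0.29. FOX2 P-KO against FOX2 WT turned to -1.15 with counts of at least 5, from 0.22 with all positions. The test between the 3 proteins (between-protein sum of squares 5.20) gave 7.70 (p = 0.00741, exact permutation test) by the number of windows and 19.9 (p = 0.0474, exact permutation test) with counts of at least 5. By the number of windows FOX2 over hnRNP M turned to -1.76 and TDP43 over hnRNP M to -1.63, and 2 contig bins passed for FOX2 against TDP43 and 1 for FOX2 against hnRNP M. The difference by replicate number turned to -0.10 by the number of windows (p = 0.5625, exact sign flips). It ran from 1.79 to 2.36 without each group in turn, where 0.0625 is the smallest p. Its 1 kb bins passed neither with TMM nor without it, and in 200 nt bins 2 passed. The part from 118001 onwards held 65.6% of windows. Common peaks numbered 104 when the same position was asked for. Common 11 nt sites numbered 5 with all 4 libraries of each protein, 7 with both WT libraries, and 11 without hnRNP M P-KO replicate 2 or without hnRNP M WT replicate 2 (11 to 27 over all libraries left out). The cause of these changes was not tested.

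Same-numbered libraries deviated together over the 5586 bins of 1 kb with r = 0.300 in FOX2, 0.231 in TDP43 and 0.0747 in hnRNP M. Over all 15 pairs of replicate 1 libraries r was 0.0210 to 0.300. The main tests did not take the numbers to pair the samples, so their spread between replicates holds any difference by number. With a replicate block the P-KO difference in contig share stayed at -0.34 (exact sign flips, p = 0.344, higher in P-KO in 1 of 6 pairs), the test between proteins gave p = 0.125 (exact permutation test), and 0 of 2 contig bins passed in each contrast of genotype or protein. Over all bins the block gave 50 calls for the common P-KO effect against 46 without it, and 17 in FOX2 and 6 in TDP43, all lower in P-KO, against 0 in each without it.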
